A study of Mus musculus with 9 samples.

Results

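The secretory program of the conducting airway was followed in mouse lung through 9 genes chosen by name from 30865 in the count table. They are Scgb1a1, Scgb3a1, Scgb3a2, Cyp2f2, Muc5b, Bpifa1, Bpifb1, Reg3g and Lcn2. RNA of whole lung had been sequenced in 9 libraries, 3 for each of 3 groups of mice: knockdown of Hif-1α after hypoxia, hypoxia alone, and normoxia. The knockdown mice had also been through hypoxia, so the knockdown differs from the hypoxia group by the knockdown and from normoxia by both. The way the knockdown was made, the oxygen level, the length of exposure, and the strain, sex and age of the mice are not stated in the labels. Nor do they state that each library came from its own mouse, so p-values measure the spread between these libraries, part of which may be technical.

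Club cells are the domed, non-ciliated secretory cells of the bronchioles, and in the mouse they line much of the conducting airway. They secrete small secretoglobins, carry cytochrome P450 enzymes that metabolise inhaled chemicals, and renew themselves and the ciliated cells after injury. Secretory cells nearer the trachea and large bronchi add gel-forming mucin and proteins of the BPI fold family, which coat the airway surface and are part of its innate defence. Epithelial cells also make antimicrobial proteins such as the lectin REG3G and the siderophore binder lipocalin 2 when stimulated by cytokines. In bulk tissue, fewer cells of a type and less RNA per cell cannot be told apart.

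The libraries held 15566485 to 18046442 counts, and 17578 genes passed the filter on low counts, all 9 secretory genes among them. Levels are given in CPM, the counts scaled to the library total with TMM factors of 0.976 to 1.03, and a count of 3 came to 0.166 to 0.193 CPM. The sample titles name muscle while the tissue field names lung. Sftpc, the surfactant protein of alveolar type 2 cells, stood at 12700 to 19700 CPM in the 9 libraries, whereas the skeletal muscle genes Myh4 and Acta1 did not exceed 0.523 CPM. Hif1a, the targeted gene, had 86.4, 85.5 and 85 CPM in the libraries labelled knockdown, 93.4, 98.3 and 88.6 CPM in hypoxia, and 80.3, 87.8 and 78.6 CPM in normoxia. Knockdown over hypoxia was -0.13 on the log2 scale (SE 0.08, adjusted p = 0.62, edgeR), so a reduction of the Hif1a transcript was not detected at this depth, and every direction given below for the knockdown rests on the labels.

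RefSeq promoters (GRCm38.p6, mouse) were matched by symbol for 6 of the 9 genes: Scgb3a1, Cyp2f2, Bpifa1, Bpifb1, Reg3g and Lcn2. The 4 shown are those of Lcn2, the gene that passed the test, and of Scgb3a1, Bpifa1 and Reg3g, which varied together between libraries. Each is the 250 bases before the annotated RefSeq start, 5′ to 3′ on the gene's strand, at chr2:32387740-32387989 (minus strand), chr11:49663345-49663594 (plus), chr2:154142630-154142879 (plus) and chr6:78468875-78469124 (minus). GENCODE M21 sets the start of Lcn2 further upstream, at chr2:32388252, so its stretch lies inside the gene as placed below. Distances of motifs are from the RefSeq starts. Capitals mark matches to the short motifs described after them.
Lcn2: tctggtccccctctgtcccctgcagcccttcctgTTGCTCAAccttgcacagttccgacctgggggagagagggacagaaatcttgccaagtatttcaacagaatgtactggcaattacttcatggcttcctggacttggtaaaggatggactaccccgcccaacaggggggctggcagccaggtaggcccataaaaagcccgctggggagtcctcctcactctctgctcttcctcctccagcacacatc
Scgb3a1: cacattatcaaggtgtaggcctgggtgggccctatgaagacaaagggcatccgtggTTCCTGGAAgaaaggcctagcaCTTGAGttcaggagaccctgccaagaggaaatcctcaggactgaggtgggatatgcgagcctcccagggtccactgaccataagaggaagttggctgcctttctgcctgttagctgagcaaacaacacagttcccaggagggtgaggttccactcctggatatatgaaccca
Bpifa1: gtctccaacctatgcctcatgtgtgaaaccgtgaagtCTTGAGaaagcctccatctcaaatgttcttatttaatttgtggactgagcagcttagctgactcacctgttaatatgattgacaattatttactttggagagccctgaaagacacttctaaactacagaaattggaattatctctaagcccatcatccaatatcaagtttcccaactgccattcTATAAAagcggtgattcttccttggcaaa
Reg3g: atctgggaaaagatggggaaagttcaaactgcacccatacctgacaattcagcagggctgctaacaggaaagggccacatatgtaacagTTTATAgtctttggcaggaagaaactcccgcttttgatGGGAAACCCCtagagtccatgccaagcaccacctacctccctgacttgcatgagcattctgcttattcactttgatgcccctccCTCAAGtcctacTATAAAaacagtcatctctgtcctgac

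Motifs were searched on both strands from 250 bases before to 50 bases after each start, and none of the matches in capitals overlap. Lcn2 held 1 match to the C/EBP palindrome TTGCNNAA, whose first base lay 216 bases before the start, a motif present in 10.8% of 32851 promoters. Reg3g held GGGA and CCC with 3 bases between them, an NF-κB-type palindrome found in 5.55% of promoters, and CTCAAG, an NKX2-1 core found in 15.9%. Reg3g and Bpifa1 each had a TATAAA, present in 13.6% of promoters, at 27 and 29 bases before the start, and Reg3g held it again on the other strand, read as TTTATA. The NKX2-1 core was present on the other strand, read as CTTGAG, in Scgb3a1 and in Bpifa1, where a further match lay 35 bases after the start and outside the sequence shown, and Scgb3a1 held the STAT-type TTCNNNGAA, which 8.3% of promoters hold. Of the promoters not printed, the 2 entries of Bpifb1 held 1 match each, to the NF-κB-type palindrome and to the STAT-type motif, and Cyp2f2 held none. ACGTG, the core of the hypoxia response element bound by HIF, was in none of the 7 promoter entries of the 6 genes and in 19.6% of all promoters. A further 3 motifs were the NF-κB motif with GGG and TTTCC 2 bases apart, the FOXA core TGTTTAC, and the interferon response element with TTTC and TTTC 2 bases apart. They were in none of the 7 entries and in 1.63%, 3.65% and 3.44% of all promoters. A match is a description of letters and not a bound site.

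The club cell secretoglobin Scgb1a1 and the P450 gene Cyp2f2 were abundant and steady across the groups, and no difference between groups passed the test for either. Scgb1a1 encodes the major secreted protein of club cells, also called CC10 or uteroglobin, and lies at chr19:9083636-9087958 on the minus strand (GRCm38, GENCODE M21). It had 23500, 24300 and 21700 CPM in knockdown, 21300, 24200 and 23300 CPM in hypoxia, and 32600, 21200 and 21700 CPM in normoxia. Normoxia replicate 1 stood above the other 8 libraries, which lay within 21200 to 24300 CPM, so the groups overlapped. Scgb1a1 alone took 2.13% to 3.17% of all counts of a library. Its log2 fold change was -0.13 for hypoxia over normoxia (95% interval -0.49 to 0.22, adjusted p = 0.75) and 0.01 for knockdown over hypoxia (-0.34 to 0.37, adjusted p = 0.99, edgeR quasi-likelihood test with Benjamini-Hochberg adjustment). Knockdown over normoxia was -0.12 (-0.47 to 0.23, adjusted p = 0.72).

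Cyp2f2, at chr7:27119909-27133660 on the plus strand, encodes the mouse club cell P450 that activates naphthalene. Its levels were 1730, 1400 and 1640 CPM in knockdown, 1680, 2030 and 1710 CPM in hypoxia, and 2350, 1760 and 1650 CPM in normoxia. The groups overlapped, with normoxia replicate 1 highest and knockdown replicate 2 lowest. The log2 fold change was -0.09 for hypoxia over normoxia (-0.40 to 0.23, adjusted p = 0.83) and -0.19 for knockdown over hypoxia (-0.50 to 0.13, adjusted p = 0.73), and -0.27 for knockdown over normoxia (-0.59 to 0.04, adjusted p = 0.28). Scgb3a2, a secretoglobin of the bronchiolar epithelium at chr18:43764289-43767399 on the plus strand, had 681, 373 and 610 CPM in knockdown, 685, 838 and 583 CPM in hypoxia, and 1190, 544 and 448 CPM in normoxia. Its highest and lowest libraries were again normoxia replicate 1 and knockdown replicate 2. The mean of Scgb3a2 was 555 ± 160 CPM in knockdown, 702 ± 130 CPM in hypoxia and 727 ± 400 CPM in normoxia (SD, n = 3 each), and none of its 3 comparisons passed, with adjusted p between 0.54 and 0.96 (edgeR).

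Per kilobase of exon, Scgb1a1 was the most abundant transcript of the 9, at 48600 ± 2700 CPM per kb in knockdown, 48200 ± 3200 in hypoxia and 52800 ± 14000 in normoxia (SD, n = 3 each). Cyp2f2, at 785 ± 83, 894 ± 97 and 949 ± 190 CPM per kb in knockdown, hypoxia and normoxia, and Scgb3a2, at 630 ± 180, 797 ± 150 and 826 ± 460 in the same order, came next, and these neighbours lay within each other's spread. Scgb3a1 followed in hypoxia, at 240 ± 240 CPM per kb. Bpifa1 stood at 73.5 ± 65, 130 ± 160 and 13.1 ± 21 CPM per kb in knockdown, hypoxia and normoxia. Lcn2 stood at 42.3 ± 3.8, 37.1 ± 3.9 and 24.7 ± 1.3 CPM per kb in the same order. Muc5b, the longest of the 9 at 14.964 kb of exon, was the lowest per kilobase in knockdown and hypoxia, at 4.93 ± 4.5 and 5 ± 4.3 CPM per kb. In normoxia it stood at 1.81 ± 2.3 CPM per kb, and Reg3g was lower there, at 1.45 ± 2.1, a difference inside the spread.

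**Figure D1:**
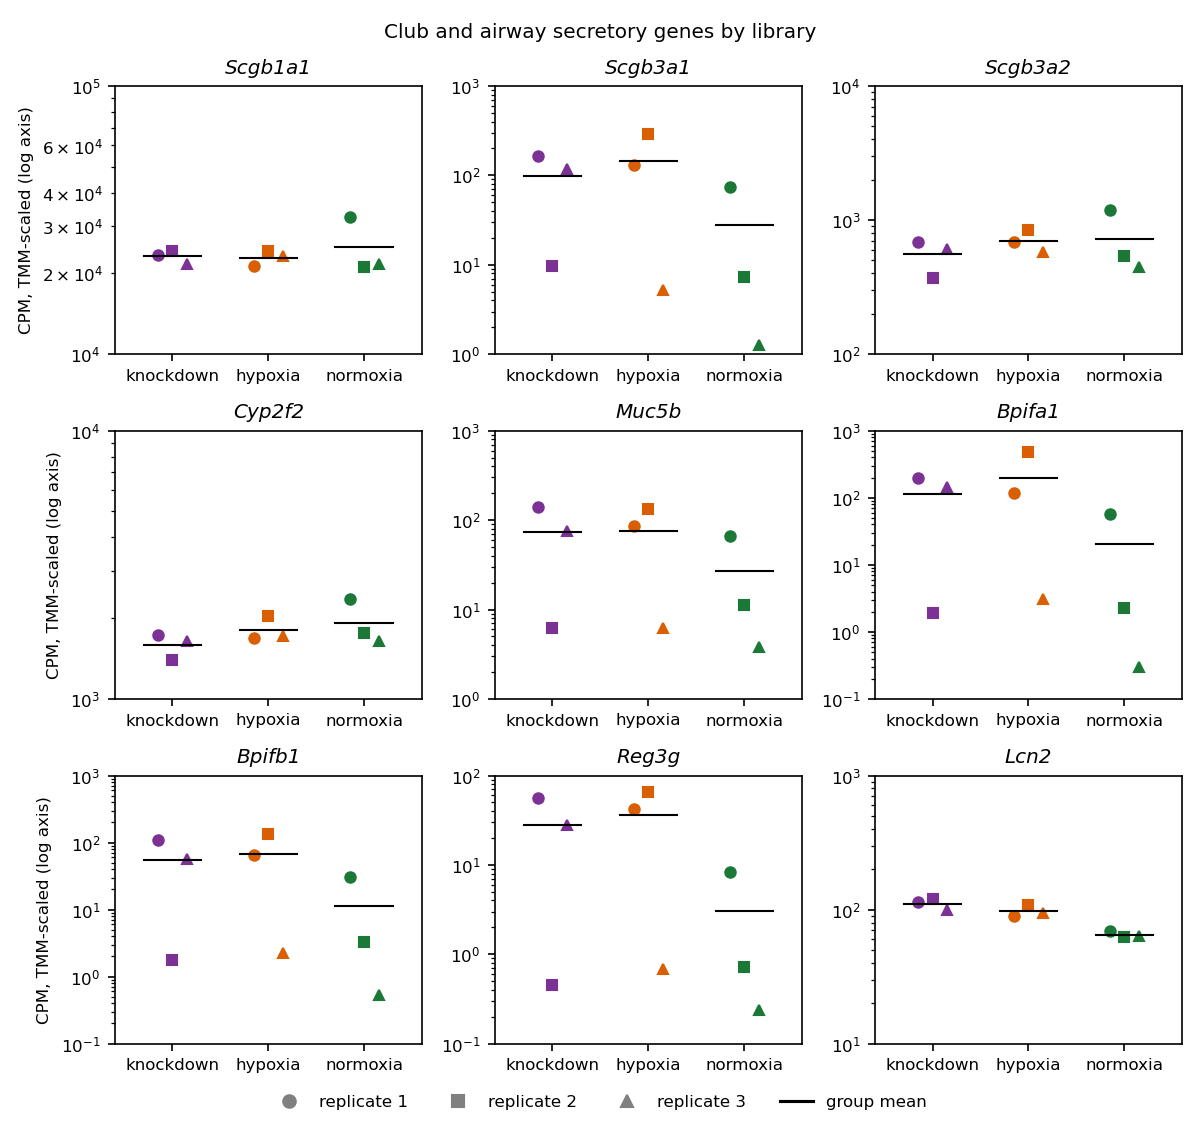
Level of each of the 9 secretory genes in each library, in TMM-scaled CPM on a log axis, with the knockdown, hypoxia and normoxia groups from left to right, 1 marker per replicate and a line at the group mean. Scgb3a1, Muc5b, Bpifa1, Bpifb1 and Reg3g each have knockdown replicate 2, hypoxia replicate 3, and normoxia replicates 2 and 3 far below the other libraries, whereas Lcn2 has its 3 normoxia libraries, at 62.7 to 68.9 CPM, below the other 6.

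The genes of mucous and surface-defence secretion behaved in another way: they differed by up to 1610-fold over the 9 libraries and by up to 194-fold within a group. Muc5b encodes a gel-forming mucin of airway mucus and lies at chr7:141839070-141873084 on the plus strand. It had 140, 6.21 and 75 CPM in knockdown, 85, 133 and 6.15 CPM in hypoxia, and 66.1, 11.2 and 3.84 CPM in normoxia. In each group at least 1 library was low and at least 1 high, with no value between 11.2 and 66.1 CPM.

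Scgb3a1, at chr11:49663610-49665118 on the plus strand, encodes a secretoglobin of the larger airways. It stood at 163, 9.6 and 119 CPM in knockdown, 131, 294 and 5.17 CPM in hypoxia, and 74, 7.31 and 1.26 CPM in normoxia. No library lay between 9.6 and 74 CPM.

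The neighbouring genes Bpifa1 and Bpifb1, at chr2:154142880-154149219 and chr2:154190818-154220369 on the plus strand, encode SPLUNC1 and LPLUNC1, lipid-binding proteins secreted onto the airway surface. Bpifa1 had 194, 1.89 and 144 CPM in knockdown, 116, 482 and 3.05 CPM in hypoxia, and 58.2, 2.24 and 0.3 CPM in normoxia, the last from 5 counts. Bpifb1 had 108, 1.76 and 56.9 CPM in knockdown, 65.8, 133 and 2.24 CPM in hypoxia, and 30.4, 3.32 and 0.54 CPM in normoxia. Both fell into the same high and low libraries as Muc5b. Reg3g, at chr6:78466269-78468872 on the minus strand, encodes a lectin that binds bacterial peptidoglycan. Its levels were 55.7, 0.457 and 27.7 CPM in knockdown, 42.6, 65.1 and 0.69 CPM in hypoxia, and 8.22, 0.725 and 0.24 CPM in normoxia, the last from 4 counts, close to the floor of 3.

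For all 5 of these genes the same 4 libraries lay below the widest gap in the ordered values: knockdown replicate 2, hypoxia replicate 3 and normoxia replicates 2 and 3. The gap was 5.88-fold for Muc5b, 7.71-fold for Scgb3a1, 9.13-fold for Bpifb1, 11.3-fold for Reg3g and 19.1-fold for Bpifa1. Normoxia replicate 3 was the lowest of the 9 libraries for all 5, and hypoxia replicate 2 was the highest for 4 of them, Muc5b being higher in knockdown replicate 1. Normoxia replicate 1, the only normoxia library above the gap, was the lowest of the 5 high libraries for each gene. The labels name no batch that holds these libraries, and library totals, at 15566485 to 17163661 counts below the gap and 16229815 to 18046442 above it, overlapped.

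The spread between replicates set these genes apart from the rest of the table. The SD of log2 CPM within groups was 3.68 for Bpifa1, 3.18 for Reg3g, 3.01 for Bpifb1, 2.75 for Scgb3a1 and 2.27 for Muc5b, which ranked them 2nd, 5th, 7th, 10th and 29th of 17578 tested genes, against a median of 0.198. It was 0.528 for Scgb3a2, at percentile 87.1, 0.214 for Scgb1a1, 0.201 for Cyp2f2 and 0.122 for Lcn2, at percentile 24.7. The ranks describe these libraries and carry no test.

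**Figure D2:**
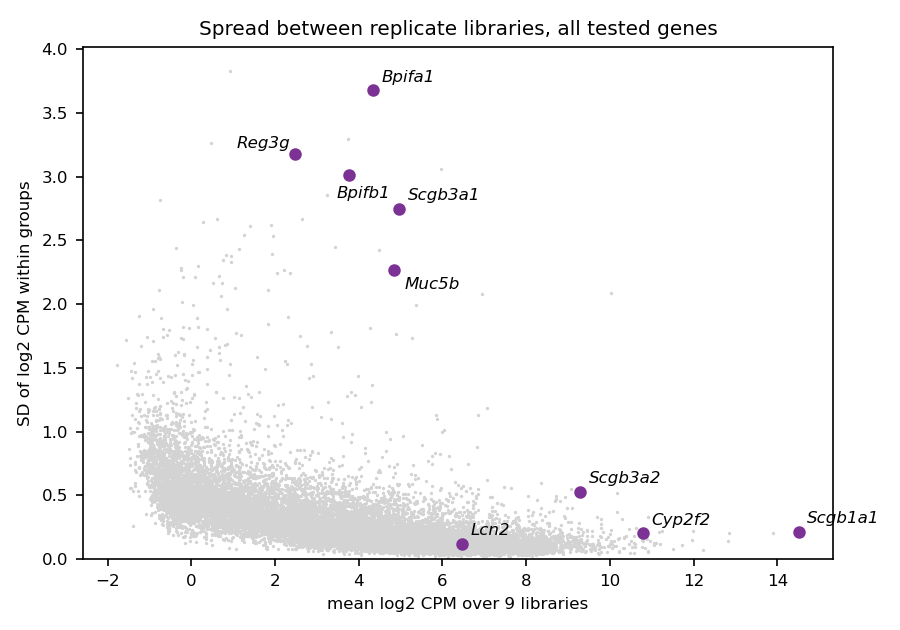
SD of log2 CPM between replicates of a group (vertical axis) against the mean log2 CPM over the 9 libraries (horizontal axis) for the tested genes in grey, with the 9 secretory genes in purple. Bpifa1, Reg3g, Bpifb1, Scgb3a1 and Muc5b lie between 2.27 and 3.68, above nearly all genes of like level, and Lcn2, at 0.122, lies in the grey band.

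Some other genes moved with the same libraries, and some did not. The mucous cell gene Clca1, which encodes a secreted protease of mucus, had 3492, 1 and 317 counts in knockdown, 303, 572 and 1 counts in hypoxia, and 4, 0 and 0 counts in normoxia. The trefoil peptide gene Tff2 had 270, 13 and 127 counts in knockdown, 112, 239 and 3 in hypoxia, and 31, 4 and 1 in normoxia. Muc5ac, the inducible gel-forming mucin, had 174, 6 and 38 counts in knockdown, 46, 73 and 9 in hypoxia, and 15, 13 and 0 in normoxia. Tff2 and Clca1 had the 4 low libraries below the other 5, and for Muc5ac normoxia replicates 1 and 2 were close. The P450 gene Cyp2a5 was at 130, 34.3 and 108 CPM in knockdown, 93.6, 275 and 10.1 CPM in hypoxia, and 28.5, 14.2 and 3.84 CPM in normoxia, where knockdown replicate 2 lay above normoxia replicate 1. Other secretory and defence genes were high in some of the 4 low libraries. Slpi was highest in knockdown replicate 2 and hypoxia replicate 3, at 105 and 79.7 CPM. Wfdc2 was highest in knockdown replicate 2, at 639 CPM, and Muc16 in hypoxia replicate 3, at 45 CPM.

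Heart and fat genes among the markers of tissue next to the lung were also low in those libraries, and other markers of the list were not. The 12 genes listed for heart, muscle, fat, thyroid, thymus and liver, of which 1 to 4 were at 0 in a library, summed to 383, 11.8 and 309 CPM in knockdown, 202, 643 and 32.9 CPM in hypoxia, and 455, 129 and 57.2 CPM in normoxia. Among them Myh6, a heart myosin gene that the muscle sleeve of mouse pulmonary veins also expresses, stood at 244, 1.11 and 179 CPM in knockdown, 65.4, 441 and 10.9 CPM in hypoxia, and 296, 85.7 and 31.3 CPM in normoxia. The fat gene Adipoq, the hormone adiponectin, had 158, 4 and 146 counts in knockdown, 43, 128 and 14 in hypoxia, and 74, 5 and 0 in normoxia. For Adipoq the 4 low libraries were those of the 5 airway genes. For Myh6 normoxia replicate 2 stood above hypoxia replicate 1. The liver gene Alb made up 78.5 of the 202 CPM of hypoxia replicate 1 and was at 6.96 CPM or less in the other libraries. The thyroid gene Tg stayed between 1.11 and 2.36 CPM. Cd4, a T cell gene, had 3.13, 3.66 and 1.52 CPM in knockdown, 12.3, 4.79 and 9.83 CPM in hypoxia, and 2.53, 2.66 and 2.16 CPM in normoxia, and it was called higher in hypoxia than in normoxia (adjusted p = 0.022, lost in 7 of 16 alternatives).

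Ciliated and alveolar cell markers varied less. The 18 ciliated cell markers, none at 0 in any library, summed to 588, 369 and 512 CPM in knockdown, 511, 651 and 404 CPM in hypoxia, and 685, 466 and 457 CPM in normoxia. The 4 low libraries were also the 4 lowest here, over a range of 369 to 685 CPM. Markers of airway cartilage and glands, 14 of 19 in the table and 3 to 7 of them at 0, summed to 25.8 to 42.3 CPM in knockdown, 24.7 to 38.5 CPM in hypoxia and 32 to 46.1 CPM in normoxia, and most of each sum was Chad and Cytl1. Chad, which encodes the cartilage protein chondroadherin, had 29, 10.4 and 19.3 CPM in knockdown, 15.2, 23.8 and 10.2 CPM in hypoxia, and 18.1, 11.1 and 10.6 CPM in normoxia, so its 4 lowest libraries were the same 4. Cytl1, a secreted cytokine-like protein gene, had 10, 12 and 15.6 CPM in knockdown, 10.7, 11.6 and 12.5 CPM in hypoxia, and 25.4, 17.7 and 18.4 CPM in normoxia. It was lower in knockdown than in normoxia (log2 fold change -0.71, adjusted p = 0.044) and in hypoxia than in normoxia (-0.82, adjusted p = 0.037), each call lost in 8 of 16 alternatives. Alveolar type 2 markers summed to 26800 to 34800 CPM in knockdown, 24300 to 31800 CPM in hypoxia and 25800 to 27500 CPM in normoxia, with knockdown replicate 2 highest. Of 14 tested, Napsa was higher in knockdown than in normoxia (log2 fold change 0.54, adjusted p = 0.017, called in 14 of 16 alternatives). Cxcl15 (-0.76, adjusted p = 0.0066, called in 16) and Abca3 (-0.35, adjusted p = 0.043, called in 8) were lower. Of 10 alveolar type 1 markers, Akap5 (-0.57, adjusted p = 0.0094, called in 15) and Rtkn2 (-0.45, adjusted p = 0.04, called in 9) were lower in knockdown than in normoxia. Of all tested genes, 4.79% were higher and 3.44% lower in knockdown against normoxia. The part of these tissues and cells in the spread of the 5 genes was not tested.

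**Figure D3:**
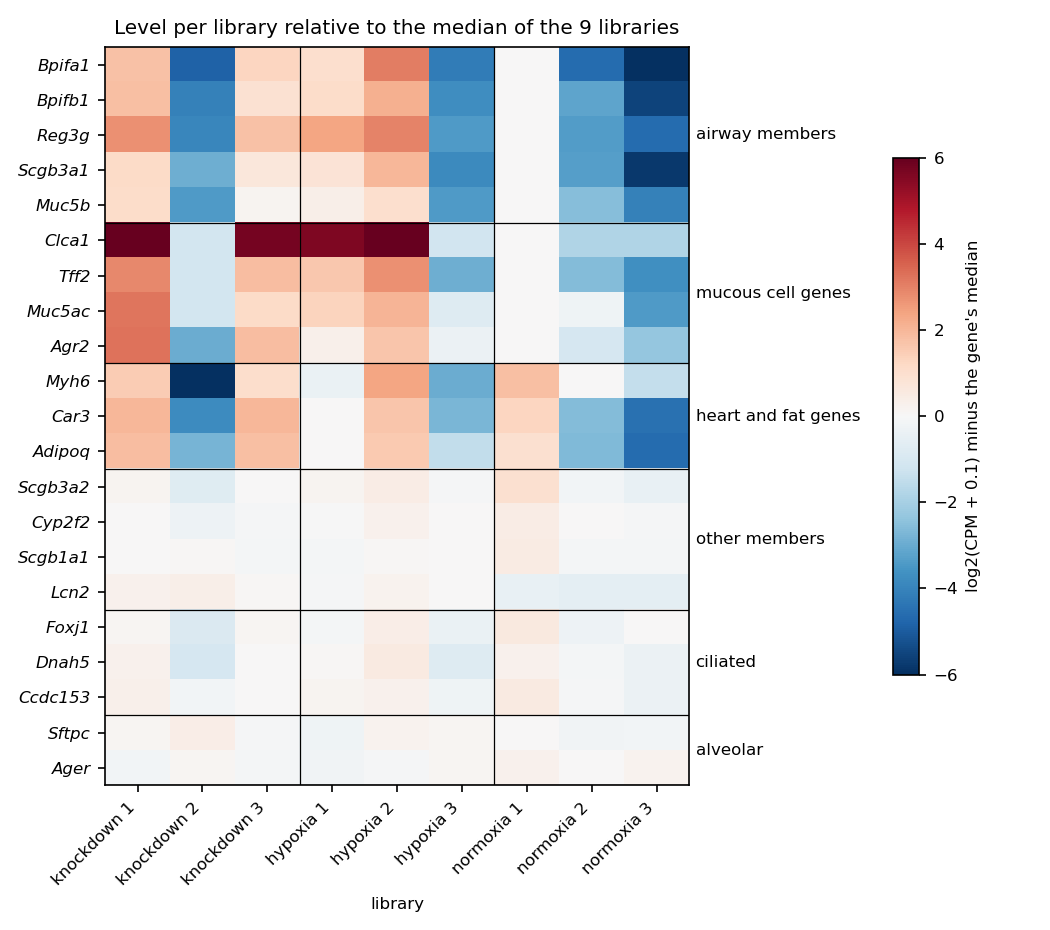
Level of each gene in each library relative to its median over the 9 libraries, as log2(CPM + 0.1), in columns for knockdown, hypoxia and normoxia replicates 1 to 3 and rows grouped by kind of gene. Blue columns (below the median) for knockdown replicate 2, hypoxia replicate 3 and normoxia replicates 2 and 3 run through the 5 airway genes and most of the mucous cell, heart and fat genes, and are faint or missing for Scgb1a1, Cyp2f2, Lcn2, Sftpc and Ager.

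With this spread, group differences of the 5 genes did not pass the test. In hypoxia over normoxia the log2 fold change was 3.58 for Reg3g (SE 1.51, 95% interval 0.24 to 6.91, adjusted p = 0.25), 3.31 for Bpifa1 (SE 1.74, adjusted p = 0.37) and 2.57 for Bpifb1 (SE 1.44, adjusted p = 0.40). Scgb3a1, at 2.39 (SE 1.39, adjusted p = 0.42), and Muc5b, at 1.47 (SE 1.18, adjusted p = 0.59), were also without a call (edgeR). In knockdown over normoxia the 5 values were 3.21 for Reg3g, 2.5 for Bpifa1, 2.29 for Bpifb1, 1.83 for Scgb3a1 and 1.46 for Muc5b, with adjusted p from 0.23 to 0.52. These comparisons share the normoxia libraries. In knockdown over hypoxia the values were -0.82 for Bpifa1, -0.56 for Scgb3a1, -0.37 for Reg3g, -0.27 for Bpifb1 and -0.02 for Muc5b, with adjusted p from 0.93 to 1. The 95% intervals of knockdown over hypoxia reached from -4.27 to 2.63 for Bpifa1 and from -2.51 to 2.48 for Muc5b, so differences of several fold in either direction were not detectable. Under a fit with no filter on low counts Reg3g and Bpifa1 passed in hypoxia over normoxia (adjusted p = 0.0061 and 0.037) and Reg3g in knockdown over normoxia (adjusted p = 0.012).

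Lcn2 was the 1 secretory gene that passed the test, and it was higher after hypoxia with and without the knockdown. Lcn2 lies at chr2:32384633-32388252 on the minus strand and encodes lipocalin 2, which withholds iron from bacteria by binding their siderophores and is made by epithelium and stored in neutrophil granules. It had 113, 119 and 100 CPM in knockdown, 89.4, 109 and 93.9 CPM in hypoxia, and 68.9, 62.7 and 63 CPM in normoxia. Every library of knockdown and of hypoxia lay above every normoxia library, whereas knockdown and hypoxia overlapped.

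Lcn2 averaged 97.4 ± 10 CPM in hypoxia and 64.8 ± 3.5 CPM in normoxia (SD, n = 3 each), a 1.5-fold difference with a log2 fold change of 0.59 (SE 0.10, 95% interval 0.37 to 0.80, adjusted p = 0.0095, edgeR). Without normoxia replicate 3 this was 0.57 with adjusted p = 0.053, and the other 15 of 16 alternatives kept the call, with adjusted p from 8.7e-06 upward. In knockdown Lcn2 averaged 111 ± 9.9 CPM, 1.71-fold the normoxia level, with a log2 fold change of 0.78 (SE 0.10, 0.56 to 0.99, adjusted p = 0.00075), called in all 16 alternatives. Both comparisons use the same normoxia libraries. Knockdown over hypoxia was 0.19 (-0.03 to 0.40, adjusted p = 0.54), which did not pass. An F-test for any difference among the 3 groups gave adjusted p = 0.0018 for Lcn2 and 0.33 or more for the other 8 genes.

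Neutrophil genes were measured beside Lcn2 because the gene is also read in these cells. The 17 listed neutrophil markers, at most 1 of them at 0 in a library, summed to 484, 665 and 628 CPM in knockdown, 330, 259 and 202 CPM in hypoxia, and 201, 445 and 352 CPM in normoxia. Hypoxia and normoxia overlapped, while knockdown lay above both. None of 16 tested markers was called between hypoxia and normoxia, where 2.77% of all tested genes were higher and 1.45% lower. In knockdown over normoxia, where Lcn2 was called, 3 of the 16 were higher: Ly6g (log2 fold change 2.48, adjusted p = 0.0043), Retnlg (1.79, adjusted p = 0.022, lost in 5 of 16 alternatives) and S100a8 (0.92, adjusted p = 0.047, lost in 9 of 16). None of the 16 was called lower there, and of all tested genes 4.79% were higher and 3.44% lower. The median log2 fold change of the 16 was 0.91, but not all rose. Camp had 6.09, 6.86 and 1.47 CPM in knockdown and 8.16, 10.7 and 9.3 CPM in normoxia. Ngp had 17.5, 14.9 and 7.5 CPM in knockdown and 14.6, 28.2 and 28.7 CPM in normoxia. In knockdown over hypoxia 3 of the 16 were higher: Ly6g (log2 fold change 2.63, adjusted p = 0.0069), S100a8 (1.68, adjusted p = 0.0054) and S100a9 (1.67, adjusted p = 0.029, lost in 6 of 16 alternatives). Of all tested genes, 1.26% were higher and 0.449% lower in knockdown over hypoxia. The part of neutrophils in the level of Lcn2 was not tested in either comparison with normoxia.

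**Figure D4:**
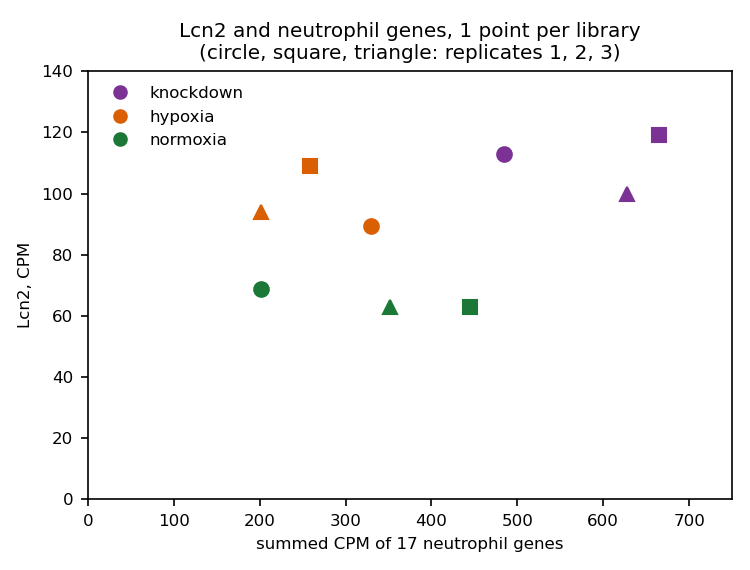
Lcn2 in CPM (vertical axis) against the summed CPM of 17 neutrophil genes (horizontal axis), 1 point per library, coloured by knockdown, hypoxia and normoxia. Hypoxia libraries, at 202 to 330 CPM of neutrophil genes, have 89.4 to 109 CPM of Lcn2, and normoxia libraries, at 201 to 445 CPM of neutrophil genes, have 62.7 to 68.9 CPM of Lcn2.

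Counted over the 9 genes, 1 was higher and none lower in hypoxia against normoxia, where 2.77% of all tested genes were higher and 1.45% lower. None of the 9 was called between knockdown and hypoxia, where 1.26% of genes were higher and 0.449% lower, and none had an unadjusted p under 0.05, as 1928 genes of the table did. DESeq2 and limma-voom also called none of the 9. In knockdown against normoxia 1 was higher and none lower, beside 4.79% of genes higher and 3.44% lower. Groups did not overlap for 1, 1 and 0 of the 9 genes in knockdown against normoxia, hypoxia against normoxia and knockdown against hypoxia, while 28.0%, 22.2% and 16.0% of all tested genes had no overlap. Among the 3 groups 1 of 9 differed, against 7.95% of all genes. The median log2 fold change of the 9 was 1.46 in the first of these comparisons, 1.47 in the second and -0.27 in the third, and that of all tested genes 0, -0.01 and 0. Against normoxia this median was the value of Muc5b, which was not called and is 1 of the 5 genes with the same library split. Scgb1a1, Cyp2f2 and Scgb3a2 were below 0 in both comparisons against normoxia, so the median does not describe the 9 as a whole.

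**Figure D5:**
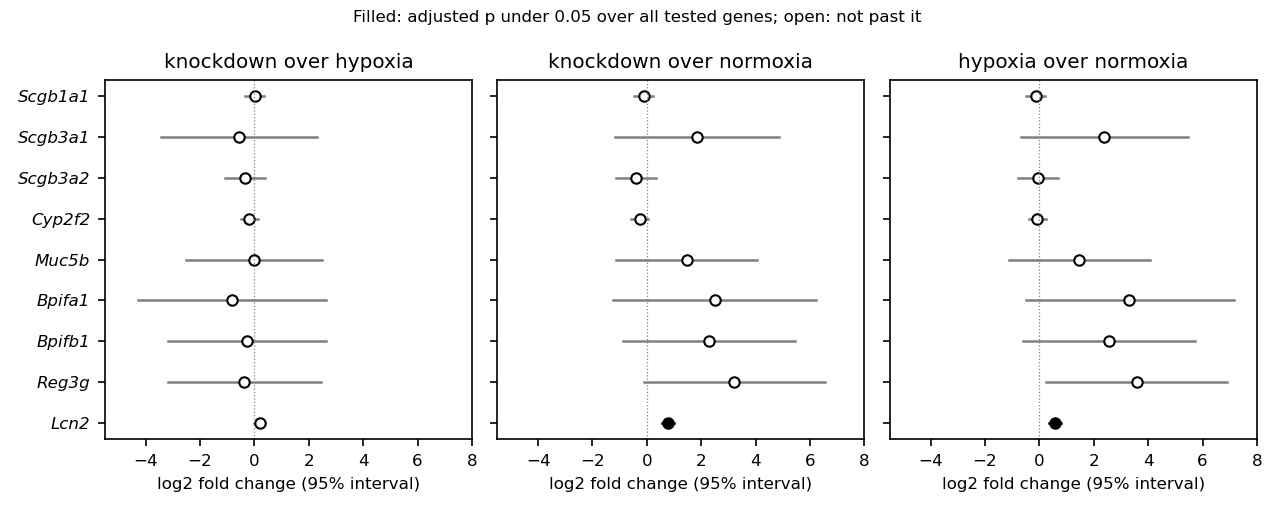
Log2 fold change with its 95% interval for the 9 secretory genes in knockdown over hypoxia, knockdown over normoxia and hypoxia over normoxia, from left to right, filled where the adjusted p is under 0.05. Lcn2 has short intervals and is filled in the 2 comparisons against normoxia, while the intervals of the 5 variable genes span several log2 units.

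As background for this list and those below, 2.77% of all tested genes were higher and 1.45% lower in hypoxia against normoxia. The shares were 4.79% and 3.44% in knockdown against normoxia, and 1.26% and 0.449% in knockdown against hypoxia. Other genes of airway secretory cells were called only in the comparisons against normoxia. Of 23 tested, Iyd, which recovers iodide from iodotyrosines, was lower in hypoxia (3.45 ± 0.79 CPM) than in normoxia (7.94 ± 1.7 CPM; SD, n = 3 each), with a log2 fold change of -1.20 (adjusted p = 0.019, lost in 4 of 16 alternatives). In knockdown against normoxia 2 were higher and 2 lower. The higher ones were the membrane mucin Muc1 (log2 fold change 0.54, adjusted p = 0.036, lost in 6 of 16 alternatives) and Clca1, whose counts are given above and whose adjusted p was 0.047, lost in 8 of 15. The lower ones were Iyd (-1.26, adjusted p = 0.0082) and the tight junction gene Cldn10, a club cell marker (-0.69, adjusted p = 0.016, lost in 2 of 16). None of the 23 was called in knockdown against hypoxia.

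Of 26 club cell enzymes of xenobiotic metabolism, 2 were higher and 1 lower in hypoxia against normoxia. Cbr2, the carbonyl reductase of club cells, averaged 4630 ± 550 CPM in hypoxia and 2990 ± 740 CPM in normoxia (log2 fold change 0.63, adjusted p = 0.049, lost in 11 of 16 alternatives). Ephx1, the microsomal epoxide hydrolase, averaged 250 ± 17 CPM in hypoxia and 181 ± 13 CPM in normoxia (0.47, adjusted p = 0.016, or 0.083 without normoxia replicate 3). Cyp4b1, a P450 of lung epithelium, averaged 549 ± 22 CPM in hypoxia and 803 ± 22 CPM in normoxia (-0.55, adjusted p = 0.0064) and was called in all 16 alternatives, while Cyp2f2 stayed without a call. In knockdown against normoxia 4 were higher and 2 were lower. The higher ones were Cbr2 (0.72, adjusted p = 0.018, called in 12 of 16 alternatives) and Ephx1 (0.52, adjusted p = 0.0047, called in all 16). The others were Cyp2b10 (0.55, adjusted p = 0.038, lost in 8 of 16) and Por, the electron donor of P450 enzymes (0.52, adjusted p = 0.029, lost in 5 of 16). None was called in knockdown against hypoxia.

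Transcription factors of airway secretory cells gave 1 lower gene of 18 in hypoxia against normoxia and 2 in knockdown against normoxia. Creb3l1, an endoplasmic reticulum-bound factor, averaged 10.6 ± 1.6 CPM in hypoxia and 18.9 ± 2.5 CPM in normoxia (log2 fold change -0.83, adjusted p = 0.047, lost in 10 of 16 alternatives). In knockdown it averaged 9.82 ± 2.7 CPM (-0.94 over normoxia, adjusted p = 0.018, called in 11 of 16). Foxa1, a forkhead factor of lung epithelium, averaged 31 ± 2.9 CPM in knockdown and 41.7 ± 3.2 CPM in normoxia (-0.43, adjusted p = 0.038, lost in 5 of 16).

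Among 19 tested inducers and mediators of epithelial defence genes, the cytokine gene Tnf was higher in hypoxia (1.92 ± 0.13 CPM) than in normoxia (0.43 ± 0.17 CPM), with a log2 fold change of 2.15 (adjusted p = 0.0095), and in knockdown (1.71 ± 0.081 CPM), with 1.98 over normoxia (adjusted p = 0.0074). Nfkbiz, which encodes IκBζ, an inducer of Lcn2 transcription, was lower in hypoxia (35.7 ± 2.4 CPM) than in normoxia (51.9 ± 4.7 CPM), with a log2 fold change of -0.54 (adjusted p = 0.013, or 0.053 without hypoxia replicate 1). In knockdown against normoxia 2 were higher and 2 lower, Tnf and the IL-17 receptor gene Il17ra (0.68, adjusted p = 0.036) against Nfkbiz (-0.38, adjusted p = 0.037) and the IL-1 receptor gene Il1r1 (-0.51, adjusted p = 0.037). Of 16 alternatives Il17ra and Il1r1 each lost the call in 7 and Nfkbiz in 9.

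Of 19 other defence and acute phase genes, none was called in hypoxia against normoxia, which is near the shares of all tested genes, 2.77% higher and 1.45% lower. In knockdown against normoxia 6 were higher and 1 lower, beside 4.79% and 3.44% of all tested genes. The lower one was Ccl20 (log2 fold change -4.21, adjusted p = 0.013, or 0.052 without knockdown replicate 2). It had 1, 0 and 1 counts in knockdown and 23, 9 and 10 counts in normoxia. The higher ones included the serum amyloid gene Saa3 (10.4 ± 2.3 CPM in knockdown and 1.53 ± 0.87 CPM in normoxia, log2 fold change 2.77, adjusted p = 0.022, lost in 3 of 16 alternatives), the antiprotease gene Slpi (1.45, adjusted p = 0.049, lost in 9 of 16) and the chitinase-like gene Chil3 (1.14, adjusted p = 0.042, lost in 10 of 16). Of 10 tested iron and siderophore partners of lipocalin 2, the transferrin receptor gene Tfrc was higher in knockdown (132 ± 5.5 CPM) than in normoxia (96.5 ± 9.3 CPM), with a log2 fold change of 0.45 (adjusted p = 0.012, or 0.065 without normoxia replicate 3). None of the 3 other BPI fold genes, the 1 other secretoglobin gene or the 18 ciliated cell markers tested was called in any of the 3 comparisons.

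The genes whose log2 levels ran most like each secretory gene over the 9 libraries were drawn from 14032 genes, as a description with no test. For Lcn2 they were Cpeb1 (Pearson r = 0.975), Apol7a (0.974) and Slco2b1 (0.969), with r of 0.817, 0.706 and 0.723 once group means were subtracted. For Scgb1a1 they were Tceal9 (0.964), Creb5 (0.946) and Eva1c (0.925), for Scgb3a2 Htr1b, Cfap45 and Ppp1ccb (0.970 to 0.957), and for Cyp2f2 Chka, Dnajc21 and Smarcal1 (0.972 to 0.954). Scgb1a1, Tceal9, Creb5 and Eva1c were each highest in normoxia replicate 1, at 32600, 170, 21.8 and 22.8 CPM, so r rests in part on that library. By rank (Spearman) their correlations with Scgb1a1 were 0.933, 0.933 and 0.883. The 5 variable genes fall into separate high and low libraries, so their correlations are not given. Thrsp, A2ml1 and Aoc1 were nearest to both Bpifa1 and Bpifb1, A2ml1, Gp2 and Prom1 to Reg3g, Aoc1, Retn and Tff2 to Scgb3a1, and Pih1d2, Oit1 and Car3 to Muc5b.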

How the data were processed

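RNA of mouse lung was sequenced in 9 libraries, 3 per group, grouped by the treatment in the labels. The authors deposited raw read counts for each gene, whole numbers that had not been normalised, as the values show. Per the submitters' processing notes, the tools were DESeq, limma, StringTie, TopHat, HISAT2 and bcl2fastq, in no stated order, on build mm10. The sources used here do not give versions, the counting program or strand handling, so overlapping genes cannot be told apart, and reads of like genes may be shared. Of 30388 gene identifiers shared with GENCODE M21 (GRCm38), 639 stood at the same position there, so positions were taken from GENCODE M21 by identifier. Symbols came from the table, where each of the 9 secretory genes stood on 1 row.

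The test was edgeR 4.0.16 under R 4.3.3 (filterByExpr, TMM, glmQLFit and glmQLFTest) in 1 model of all 9 libraries with no covariate, 6 residual degrees of freedom and 17.3% common biological variation. P-values are two-sided and were adjusted by Benjamini and Hochberg over 17578 genes, with a threshold of 0.05. Adjusted p-values printed with no tool are from edgeR. The code was tested on simulated data. The SE of a fold change was worked back from the test, as the absolute log2 fold change over the square root of F. Intervals of fold changes are at 95%, built from this SE and a t quantile, and so are approximate. The floor of 3 counts covers counting error only. Levels per kilobase divide CPM by the union of exons. Alternatives were DESeq2 size factors, DESeq2 1.42.0, limma-voom (limma 3.58.1), a filter of 1 CPM in 3 libraries, no filter, a replicate block, a fit of only the 2 groups compared, and leaving out each library.

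Chi-square per degree of freedom between replicates was 11.9 to 23.5, so no library was present more than once within a group. Libraries of different groups were not compared in this way. The secretory genes and the other lists were chosen with earlier results of these data known. Named genes were the 9 secretory genes, Hif1a, up to 4 called genes of each list with the largest change, the 3 genes most like each secretory gene and abundant markers. Muc5ac, Tff2, Cyp2a5, Wfdc2, Muc16, Camp, Ngp, Myh4, Acta1, Adipoq, Myh6, Alb, Tg, Chad and the counts and levels beside the library pattern were added after their values were seen.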

Additional observations from a re-analysis of the deposited data

How the results depend on the processing

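Of 432 refits of the members' fold changes (9 genes, 3 comparisons, 16 alternatives), 404 kept direction and side of the threshold, 24 reversed, 3 gained a call and 1 lost it. Without the low-count filter 3 members were called in hypoxia against normoxia, 2 in knockdown against normoxia and 2 among the 3 groups. Leaving out 1 library gave 0 to 1 members called in hypoxia against normoxia, 0 without normoxia replicate 3. Same-numbered replicates correlated at -0.42 to 0.27 in their deviations from group means, and the labels give the numbers no meaning, so they were not taken as pairs. In hypoxia against normoxia 742 genes were called, against 400 with a replicate block, 1309 with DESeq2, 462 with limma-voom, 1293 with no filter, 444 in a fit of only the 2 groups, and 209 to 965 without 1 library (292, 301, 491 and 209 without hypoxia replicates 1 and 3 and normoxia replicates 2 and 3). In knockdown against hypoxia 301 were called, against 197 with the block, 567 with DESeq2, 644 with no filter, and 189 to 425 without 1 library, lowest without knockdown replicate 3. In knockdown against normoxia 1446 were called, against 936 with the block and 715 to 1567 without 1 library (881, 957 and 715 without knockdown replicates 2 and 3 and normoxia replicate 3). With the block the members called stayed at 1, 0 and 1 in these 3 comparisons.

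Every reversal was of a fold change without a call. In hypoxia over normoxia Scgb3a2 was 0.07 with limma-voom and 0.07 with the block. In knockdown over hypoxia limma-voom gave 0.01 for Scgb3a1 and 0.03 for Muc5b, and the block 0.08 for Scgb3a1, 0.25 for Muc5b and 0.14 for Bpifb1. Leaving out 1 library gave, in hypoxia over normoxia, -0.30 to 0.50 for Scgb3a2, -0.24 to 0.10 for Scgb1a1 and -0.18 to 0.08 for Cyp2f2. In knockdown over hypoxia it gave -0.05 to 0.05 for Scgb1a1, -0.88 to 0.69 for Muc5b, -1.19 to 0.70 for Bpifb1, -1.35 to 0.36 for Reg3g, -1.15 to 0.51 for Scgb3a1 and -1.45 to 0.92 for Bpifa1. In knockdown over normoxia it gave -0.23 to 0.11 for Scgb1a1 and -0.64 to 0.16 for Scgb3a2. Causes were not tested. By the longest transcript instead of the exon union, Lcn2 was at 80.8, 70.9 and 47.2 CPM per kb in knockdown, hypoxia and normoxia. Of 40 list calls, 9 held in every alternative. With 3 libraries a group and these spreads, changes of the 5 variable genes of several fold were not detectable.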

Other observations

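In all, 301 of 17578 tested genes (1.71%) had knockdown replicate 2, hypoxia replicate 3 and normoxia replicates 2 and 3 all below the other 5 libraries, and 27 (0.154%) had them below by at least 2-fold. The 5 variable secretory genes set this split by their own gap and so are among the 27, and the shares carry no test. The others were chosen after their values were seen. They include fat genes: Cfd, which encodes the adipocyte protease adipsin, had 64.9, 2.02 and 46.8 CPM in knockdown, 15.8, 51.3 and 5.17 CPM in hypoxia, and 35, 2.3 and 0.66 CPM in normoxia. Car3, the carbonic anhydrase of fat and muscle, had 62.5, 1.05 and 61.9 CPM in knockdown, 15.6, 49.7 and 2.24 CPM in hypoxia, and 37.9, 2.48 and 0.6 CPM in normoxia. The lipid droplet gene Plin1 had 8.04, 0.784 and 6.39 CPM in knockdown, 2.88, 5.87 and 0.517 CPM in hypoxia, and 3.92, 0.181 and 0 CPM in normoxia.

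Values of single genes among the 5 high libraries were also looked at, again chosen after they were seen. Bpifa1, Reg3g and A2ml1, a protease inhibitor of the alpha-2-macroglobulin family, were lowest in normoxia replicate 1, at 58.2, 8.22 and 12.7 CPM. Cfd, Car3 and Plin1 were lowest in hypoxia replicate 1, and Oit1, at 0.996 CPM, in knockdown replicate 3. Clca1 had 4 counts in normoxia replicate 1 and 303 to 3492 counts in the high libraries of knockdown and hypoxia. With 1 normoxia library above the gap these orders have no replicate check and no test.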
